A study of Mus musculus with 6 samples.

Results

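Solute carriers are the membrane proteins that move amino acids, sugars, metals, ions, nucleosides and metabolites across the plasma membrane and the membranes of lysosomes, mitochondria and the Golgi. The carriers described here were chosen by name and by level. They are all gene rows whose symbol starts with Slc and a number and whose mean over the 6 libraries was at least 2 in the deposited rescaled TPM, a transcript level per length that the authors rescaled between libraries. That gave 220 of 386 Slc rows among 36557 gene rows, and 216 distinct symbols. Slc30a1, Slc30a4, Slc25a32 and Slc26a6 had 2 rows each with equal values, and how such pairs of rows came about is not given in the sources used here, so their levels are uncertain. Another 166 Slc rows lay under the threshold, of which 5 were 0 in every library. The rule used the level, not the difference between groups, although these genes were chosen for description with earlier results of the same libraries known.

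RNA came from mouse aortic arch with thoracic aorta after 4 weeks on a high-fat diet. The Apoe-/- MiR26b-/- group (called knockout below) and the Apoe-/- control group held 3 libraries each, so the deletion of apolipoprotein E was common to both, and the labels set them apart by the microRNA gene Mir26b alone. Apoe-/- mice clear cholesterol-rich lipoproteins poorly and form atherosclerotic plaque on such a diet. The labels give neither age nor sex and do not say how the Mir26b allele was made. They do not say that each library was a separate animal, so the p-values cover the spread between libraries, which need not be spread between animals. That spread was wider than counting noise alone (mean chi-square per gene 12.22 to 110.6 between libraries of a group), and its source was not tested. The table held 0 microRNA rows, and the deletion itself could not be checked in it.

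Macrophages that take up lipoproteins and dying cells in plaque digest them in lysosomes, and lysosomal carriers return the amino acids, nucleosides and metals to the cytosol. Smooth muscle cells rely on exchangers of calcium, bicarbonate, chloride and protons to set tension and intracellular pH, and brown fat around the aorta is rich in mitochondrial carriers. A microRNA lowers the level or translation of mRNAs whose 3′ untranslated region (UTR) pairs with its seed, bases 2 to 8. The mature sequences of the deleted microRNA and of its relative miR-26a-5p, which is encoded by Mir26a-1 on chromosome 9 and Mir26a-2 on chromosome 10, are given to show that both carry one seed (capitals). They are from RefSeq on GRCm38.p6, and miR-26b-5p lies at chr1:74394324-74394344 on the plus strand.
miR-26b-5p: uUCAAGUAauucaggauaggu
miR-26a-5p: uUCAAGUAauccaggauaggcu

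The DNA match to this seed is TACTTGA, and the match to bases 2 to 8 followed by an A is TACTTGAA. The carriers called in the comparison below that hold the 8-base match in the longest annotated 3′ UTR (GENCODE release M21, sense strand) are shown with 11 bases on either side, match in capitals. Slc36a1 was higher in knockouts, while Slc38a2 and Slc2a13 were lower.
Slc36a1: actgtggtcaaTACTTGAAggcactttagt
Slc38a2: ttttatgatttTACTTGAAtgtgcctaacg
Slc2a13: aagcaactcaaTACTTGAAaaggaaccttc

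The 7-base match was in 40 of 214 carriers with an annotated 3′ UTR (18.7%), against 1799 of 16142 tested genes (11.1%). The 8-base match was in 17 carriers (7.94%), against 778 tested genes (4.82%). The median 3′ UTR was also longer in the carriers, at 1472 bases against 1192 bases, and these shares were not adjusted for length. The median log2 difference, knockout over control, was -0.04 in carriers with the 7-base match and 0.01 in carriers without it. Of the called carriers, 3 of the 17 higher ones (Slc36a1, Slc38a6 and Slc46a3) and 4 of the 12 lower ones (Slc38a2, Slc2a13, Slc16a7 and Slc4a7) held the 7-base match. Which UTR is used in aorta was not measured, and a match is a run of letters, not a shown site.

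The carriers as a set lay close to the background of all genes. In edgeR's quasi-likelihood test (Benjamini-Hochberg adjustment over 17392 genes), 17 of 220 rows (7.73%) were called higher and 12 (5.45%) lower in knockouts at an adjusted p under 0.05. Of all tested genes, 6.5% were called higher and 3.84% lower, and of those with a mean of at least 2 the shares were 7.3% and 4.91%. All 220 rows passed the low-count filter. The median log2 difference was -0.002 over the carriers and -0.003 over all tested genes. All 3 knockout values lay above all 3 control values for 43 carriers and below them for 35, where 20.4% and 15.7% of genes of that level did so. Summed over the carriers, the rescaled TPM was 6103, 6173 and 6135 in knockouts and 6327, 6085 and 6011 in controls, so the totals overlapped. With library size as the only scaling the split was 24 higher and 9 lower.

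**Figure D1:**
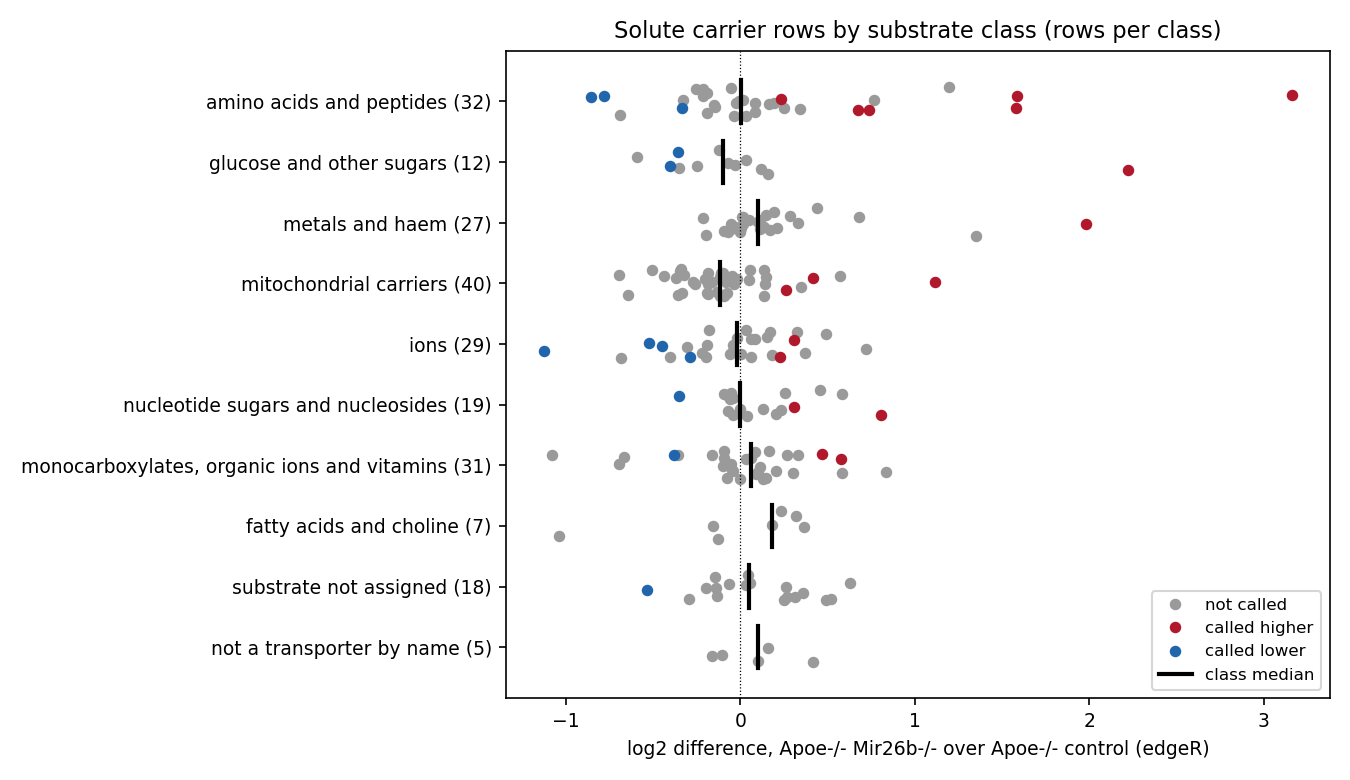
Log2 difference (x axis, knockout over control, edgeR) of each of the 220 carrier rows by substrate class (y axis), with called rows in red (17 higher) and blue (12 lower) and a bar at the class median. Class medians lie near 0, and the widest spread, with 6 higher and 3 lower rows, is among the 32 amino acid and peptide carriers.

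The calls depended on which libraries were fitted. Knockout replicate 3 stood at 0.97 on the first component of all genes (61.9% of variance), between the controls (-45.35 to -25.42) and the other knockouts (47.05 and 55.72). Without it, 52 carriers were higher and 33 lower, and these took in all 29 called ones. Over all genes that fit called 3051 higher and 2028 lower, so the rise was not particular to the carriers. Without any 1 of the other 5 libraries edgeR called 0 carriers, with 58 to 72 of them at an unadjusted p under 0.05. Over all genes those fits called only 0 to 52 higher and 0 to 22 lower. Every called carrier kept its sign in each of these fits.

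Markers of several cell types differed between the groups, and since this is whole tissue, more cells of a type and more RNA per cell cannot be told apart. Of 14 macrophage markers, 13 were higher, with summed rescaled TPM of 5833, 6481 and 2293 in knockouts and 1141, 1124 and 865.7 in controls. Of 11 smooth muscle markers, 7 were lower, with sums of 17970 to 20990 in knockouts and 26000 to 30260 in controls. None of 9 brown fat or 12 white fat markers was called, but the brown fat sums ran over 277.0, 428.1 and 1574 in knockouts and 2234, 1225 and 569.5 in controls. Of the other lists, endothelium had 4 of 10 markers higher, fibroblast 3 of 10 higher and 1 lower, neutrophil 1 of 6 and nerve 1 of 8 higher, while T cell, B cell, striated muscle and red blood cell markers had 0 calls. Summed levels were 1245 to 1353 in knockouts and 970.8 to 1170 in controls for endothelium, and 6464 to 7487 in knockouts and 5351 to 5645 in controls for fibroblasts. All macrophage and smooth muscle markers had a mean above 1 rescaled TPM. With the fat marker level as a covariate, 1 carrier stayed called, Slc38a11, although all 29 kept their sign with an unadjusted p under 0.05. The part of cell makeup in the carrier differences was not tested.

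**Figure D2:**
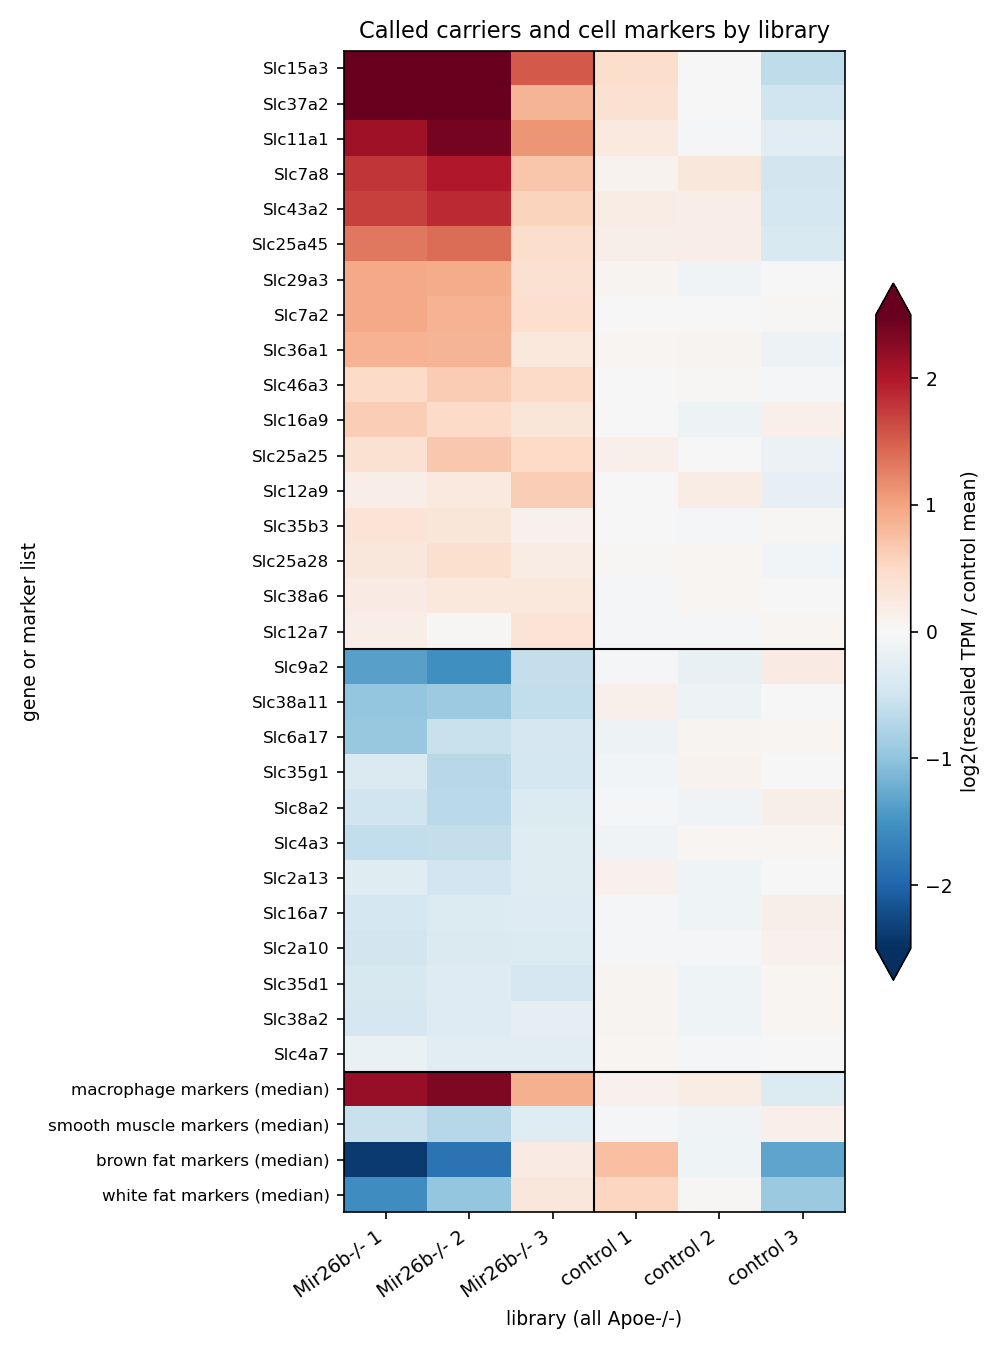
Log2 ratio to the control mean (colour, rescaled TPM) of the 29 called carriers and of the median of 4 marker lists (y axis) in each library (x axis). In 13 of the 17 higher carriers knockout 3 is the weakest of the 3 knockouts, and the macrophage marker medians are 2.18, 2.34 and 0.88 in knockouts 1, 2 and 3.

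The amino acid and peptide carriers held the largest increase and the most calls. Of 32 rows, 6 were higher (18.8%), 3 lower (9.38%) and 23 not called, with a class median of 0.004 on the log2 scale. Of all tested genes with a mean of at least 2, 7.3% were higher and 4.91% lower. These shares are the background for each class and companion list below. Slc15a3 (chromosome 19, 10839727 to 10859362, plus strand; all gene positions are GRCm38) moves histidine and small peptides, bacterial muropeptides among them, out of lysosomes and endosomes. Its rescaled TPM was 46.6, 56.3 and 12.1 in knockouts and 5.67, 4.20 and 2.69 in controls, an 8.96-fold higher level (log2 3.16, SE 0.60, edgeR adjusted p 0.0328). The groups did not overlap, but knockout 3 stood far nearer to the controls than the other knockouts did. The fold was 5.84 with the fat covariate. Exons of 8 called carriers (Slc15a3, Slc7a2, Slc43a2, Slc37a2, Slc25a25, Slc16a7, Slc16a9 and Slc35b3) overlap genes on the other strand, for Slc15a3 Tmem132a, and strandedness of the libraries is not given in the labels. Its relatives, added after their values were seen, were not called. Slc15a2, the high-affinity peptide carrier, had a log2 difference of 0.77 (SE 0.22, edgeR adjusted p 0.0729) with overlapping groups, and Slc15a4, the other lysosomal one, had 0.25 (SE 0.12, adjusted p 0.199).

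Several carriers of large neutral and cationic amino acids rose, with knockout 3 the lowest of the knockouts in each. Slc7a8, the light chain of a neutral amino acid exchanger (LAT2), had 6.95, 8.06 and 3.26 rescaled TPM in knockouts and 2.14, 2.44 and 1.47 in controls, 3.01-fold higher (edgeR adjusted p 0.0417). Slc43a2, which carries branched-chain amino acids and phenylalanine (LAT4), had 19.7, 21.9 and 8.88 in knockouts and 6.89, 6.72 and 4.45 in controls, 2.99-fold higher (edgeR adjusted p 0.0397). In both, each knockout value exceeded each control value. Slc7a2, the arginine carrier CAT2, which feeds nitric oxide synthesis in activated macrophages, had 26.6, 25.1 and 18.4 in knockouts and a narrow 13.7, 13.7 and 14 in controls, 1.67-fold higher (edgeR adjusted p 0.0304). Slc7a7, an exchanger of cationic for neutral amino acids, just missed the threshold, with 23.8, 22.1 and 11.4 in knockouts and 6.48, 7.29 and 7.84 in controls (log2 1.19, SE 0.29, edgeR adjusted p 0.0509). Slc3a2, the heavy chain that brings Slc7a7 and Slc7a8 to the surface, had 119.5, 114.0 and 86.4 in knockouts and 74.5, 77.9 and 77.4 in controls, not called (edgeR adjusted p 0.181). The Slc7 family was not uniform. Slc7a5, the light chain LAT1, had overlapping groups and a log2 difference of -0.15 (SE 0.20).

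Of the lysosomal and plasma membrane carriers with smaller increases, Slc36a1 exports small amino acids together with protons from lysosomes and is part of amino acid sensing there. It had 11.7, 11.5 and 7.71 rescaled TPM in knockouts and 6.66, 6.69 and 5.83 in controls, 1.60-fold higher (edgeR adjusted p 0.0469). Slc38a6, a member of the glutamine carrier family, rose by a small and even step, with 37.4, 38.8 and 38.9 in knockouts and 31.0, 33.1 and 32.5 in controls (1.18-fold, edgeR adjusted p 0.0445). Here knockout 3 was as high as the other knockouts.

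The called decreases in this class were also in the Slc38 and Slc6 families. Slc38a2 (SNAT2), a sodium-coupled importer of small neutral amino acids that cells raise when starved of them, was the most abundant amino acid carrier. It had 122.5, 131.4 and 140.3 rescaled TPM in knockouts and 170.6, 151.2 and 167.9 in controls, 1.26-fold lower and just past the threshold (edgeR adjusted p 0.0499). Slc38a11, a little-studied relative, had 10.3, 10.6 and 13.0 in knockouts and 21.9, 18.4 and 19.8 in controls, 1.81-fold lower (log2 -0.85, SE 0.13, edgeR adjusted p 0.0246). This was the carrier still called with the fat covariate, at a log2 difference of -0.73 and an adjusted p of 0.0437. Slc6a17, which loads neutral amino acids into synaptic vesicles in neurons, was low in all libraries, at 1.61, 2.12 and 2.35 in knockouts and 2.85, 3.26 and 3.24 in controls (1.72-fold lower, edgeR adjusted p 0.0241). Its relative Slc6a9, the glycine carrier, had 25.2 to 26.8 in knockouts and 27.9 to 34.9 in controls and was not called (edgeR adjusted p 0.0557). Slc1a5, the glutamine carrier ASCT2, had 110.3, 122.4 and 145.3 in knockouts and 142.9, 145.9 and 129.8 in controls, with overlapping groups (edgeR adjusted p 0.399).

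**Figure D3:**
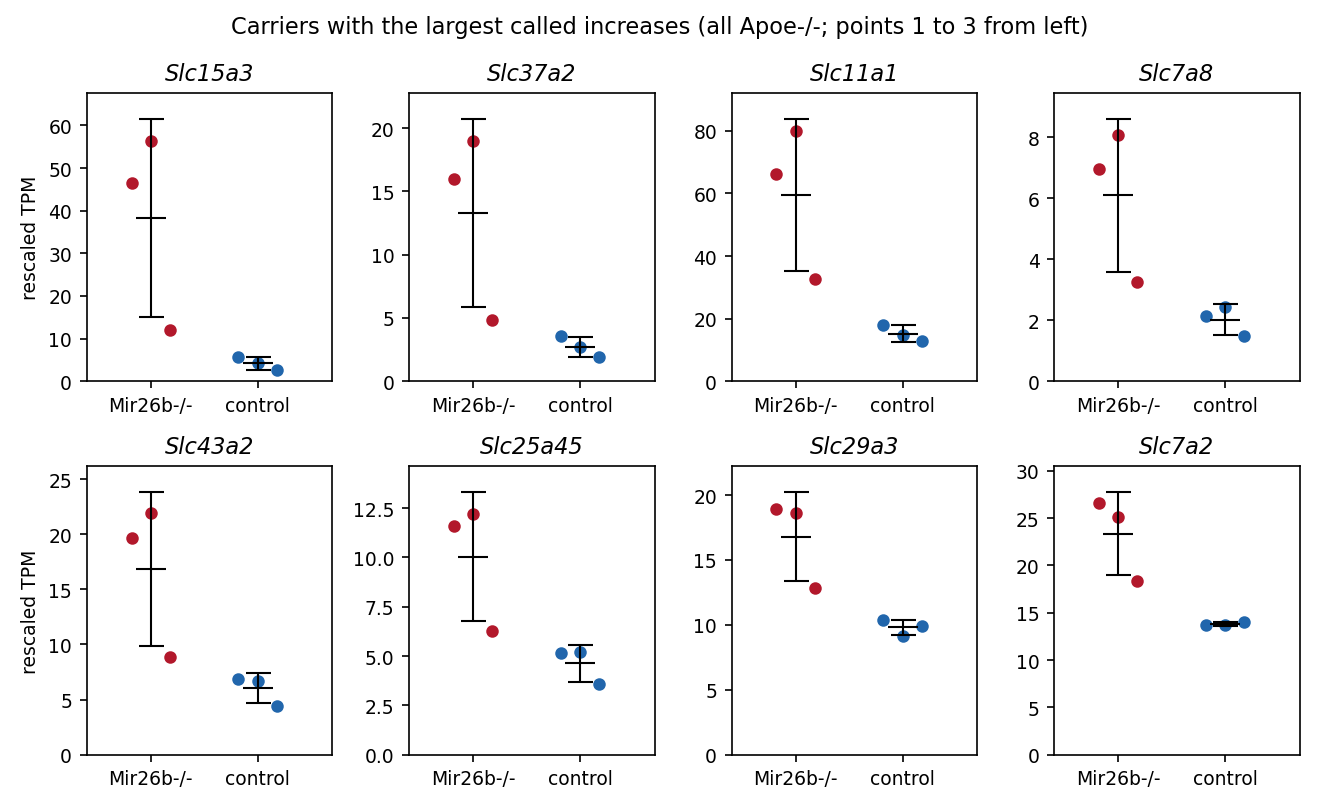
Rescaled TPM (y axis, from 0) in each library for the 8 carriers with the largest called increases, knockouts (red) left of controls (blue); bars show the mean and SD of 3 libraries. The third knockout point is the lowest of its group in each panel, and all knockout points lie above the controls, for Slc15a3 at 12.1 against a highest control value of 5.67.

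Sugar carriers showed 1 increase (8.33%) and 2 decreases (16.7%) among 12 rows, with a class median of -0.10 on the log2 scale. Slc37a2, a sugar-phosphate exchanger of the endoplasmic reticulum that is abundant in macrophages, had 16.0, 19.0 and 4.86 rescaled TPM in knockouts and 3.54, 2.68 and 1.91 in controls. It was 4.67-fold higher (log2 2.22, SE 0.50, edgeR adjusted p 0.0421), and again knockout 3 lay close to the controls. The related Slc37a1 had overlapping groups, with 4.89, 4.65 and 5.89 in knockouts and 4.998, 4.878 and 6.45 in controls (edgeR adjusted p 0.195).

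Both decreases were in the GLUT family. Slc2a10 (GLUT10), whose loss in humans causes arterial tortuosity syndrome, had 12.1, 13.0 and 13.1 rescaled TPM in knockouts and 16.0, 16.1 and 17.8 in controls, 1.28-fold lower (edgeR adjusted p 0.0322). Slc2a13, a proton-coupled carrier of myo-inositol, had 4.19, 3.73 and 4.17 in knockouts and 5.54, 4.79 and 5.17 in controls, 1.32-fold lower (edgeR adjusted p 0.0338). All 3 knockout libraries were alike in both genes. Slc5a3, the sodium-coupled myo-inositol carrier, was not called (log2 -0.35, SE 0.13, edgeR adjusted p 0.117). The main glucose carriers were not called either. Slc2a1 (GLUT1) had 26.3 to 29.8 in knockouts and 25.8 to 31.9 in controls (log2 -0.12, SE 0.10). Slc2a4 (GLUT4), the insulin-responsive carrier of fat and muscle, had 15.6, 16.5 and 37.9 in knockouts and 46.6, 32.2 and 25.5 in controls (edgeR adjusted p 0.369). The summed brown fat markers and the summed white fat markers had this same order of libraries. Slc50a1 was the most abundant of the class, at 87.95 to 105.4 in knockouts and 86.55 to 93.04 in controls.

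Among 27 rows for metal and haem carriers 1 was called, an increase (3.70%), and 19 had a positive log2 difference. Slc11a1 (NRAMP1, chromosome 1, 74375195 to 74386062, plus strand) removes iron and manganese from the phagosomes of macrophages. It had 66.2, 79.9 and 32.6 rescaled TPM in knockouts and 17.9, 14.9 and 12.7 in controls, 3.94-fold higher (log2 1.98, SE 0.37, edgeR adjusted p 0.0322). Every knockout library exceeded every control by a clear margin, knockout 3 included. The gene ends 8.248 kb before the Mir26b hairpin (74394310 to 74394394), so any genome carried along with the knockout allele cannot be told apart from loss of the microRNA for this gene. The other carrier within 20 Mb was Slc4a3, 1.152 Mb beyond the hairpin.

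The remaining metal carriers were not called with all libraries, although 10 of the class were higher and 2 lower without knockout 3. That fit called 52 of all 220 carriers higher and 33 lower. Slc40a1 (ferroportin), the only known iron exporter of mammalian cells, had 9.85, 15.5 and 6.61 rescaled TPM in knockouts and 4.54, 3.42 and 2.78 in controls (log2 1.35, SE 0.36, edgeR adjusted p 0.0601). The groups did not overlap, and the knockout SD of 4.51 was the wider one (0.895 in controls). Slc39a1, a zinc importer, had 147.3, 148.2 and 108.4 in knockouts and 106.2, 107.7 and 111.0 in controls (edgeR adjusted p 0.165), so knockout 3 stood within the controls. The zinc carrier Slc39a7 and the haem carrier Slc48a1 were the most abundant of the class, with log2 differences of 0.05 (SE 0.07) and 0.01 (SE 0.07). The lowest unadjusted p among zinc exporters was that of Slc30a9, at 34.2 to 37 in knockouts and 39.4 to 41.8 in controls (edgeR adjusted p 0.0685).

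Iron handling genes outside the carriers were a companion list. Of its 13 tested members, which also cover copper and zinc, 5 were higher and 0 lower, with a median log2 difference of 0.56. Of all tested genes with a mean of at least 2, 7.3% were higher and 4.91% lower, with a median of -0.016. The list was chosen with earlier results of these data known. Ftl1, the ferritin light chain, had 3990, 4372 and 1752 rescaled TPM in knockouts and 1266, 1126 and 972.9 in controls, 2.97-fold higher (edgeR adjusted p 0.0384). It has near-identical copies that could share its reads. Fth1, the ferritin heavy chain, was not called (log2 0.37, SE 0.13, edgeR adjusted p 0.104). It had 5062, 5295 and 3841 in knockouts and 3687, 3575 and 3604 in controls. Trf, transferrin, had 110.5, 120.2 and 105.8 in knockouts and 68.8, 89.0 and 62.9 in controls (1.48-fold, edgeR adjusted p 0.0325). Cp (ceruloplasmin, an iron oxidase), Steap3 (an endosomal iron reductase) and Hfe (a regulator of iron sensing) were 1.45-, 1.53- and 1.47-fold higher, with edgeR adjusted p of 0.0414, 0.0446 and 0.0325. Mt2, a metal-binding metallothionein, had a log2 difference of 2.55 (SE 0.72) and was not called (edgeR adjusted p 0.0680). Its knockout 3 lay within the controls, with 1034, 1055 and 151.6 in knockouts and 124.6, 175.2 and 83.5 in controls.

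The mitochondrial carriers, all of the Slc25 family, were the largest class and included the most abundant carriers of the tissue. Of 40 rows, 3 were higher (7.5%) and 0 lower by edgeR. DESeq2 called 4 higher and 3 lower, and 11 rows had an unadjusted edgeR p under 0.05. The log2 difference was negative in 29 rows and positive in 11, with a median of -0.11. Slc25a4 and Slc25a5 exchange ADP for ATP across the inner membrane and Slc25a3 imports phosphate for ATP synthesis, and these 3 made up 14.6% of the carriers' summed level. Slc25a4, the form typical of muscle, had 318.0, 299.1 and 323.3 rescaled TPM in knockouts and 353.2, 348.3 and 359.4 in controls, not called (edgeR adjusted p 0.0756). Slc25a3 had 314.3 to 318.7 in knockouts and 326.8 to 334.0 in controls (edgeR adjusted p 0.229). Slc25a5 overlapped, at 230.8 to 256.8 in knockouts and 211.1 to 252.1 in controls (edgeR adjusted p 0.663). With both groups pooled, the levels of Slc25a4 and Slc25a3 were 333.5 ± 23.7 and 323.5 ± 8.88 (SD, n = 6), and Slc25a5 followed at 237.6 ± 16.9. Slc25a4 stood above Slc25a3 in every control (353.2, 348.3 and 359.4 against 332.8, 326.8 and 334.0). In knockout 2 it stood below, at 299.1 against 314.3.

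The lower class median was not shared by all knockouts. The summed level was 1686, 1690 and 1874 rescaled TPM in knockouts and 2013, 1839 and 1763 in controls. The median was -0.17 and -0.20 in knockouts 1 and 2, where 28 of 40 rows lay below the control mean, and 0.00 in knockout 3, where 20 did. The fat marker level (mean log2 CPM of 21 marker rows) was 4.37, 4.89 and 6.34 in knockouts and 6.70, 6.18 and 5.22 in controls, so knockout 3 was also the fat-rich knockout. With that level as a covariate the class median was -0.04, with 23 negative and 17 positive rows. Without knockout 3 the class had 6 higher and 8 lower calls, where 52 and 33 of all 220 carriers were called. Slc25a20, which brings acylcarnitines into mitochondria for fat oxidation, had 39.1, 38.7 and 78.4 rescaled TPM in knockouts and 95.1, 60.6 and 41.4 in controls. Slc25a42, a coenzyme A carrier, had 9.21, 8.31 and 21.8 in knockouts and 27.5, 19.2 and 14.8 in controls. Apart from the order of knockouts 1 and 2, both followed the fat level, and neither was called (edgeR adjusted p 0.572 and 0.316); they were picked after their values were seen, as the mitochondrial carriers with the widest range within controls.

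**Figure D4:**
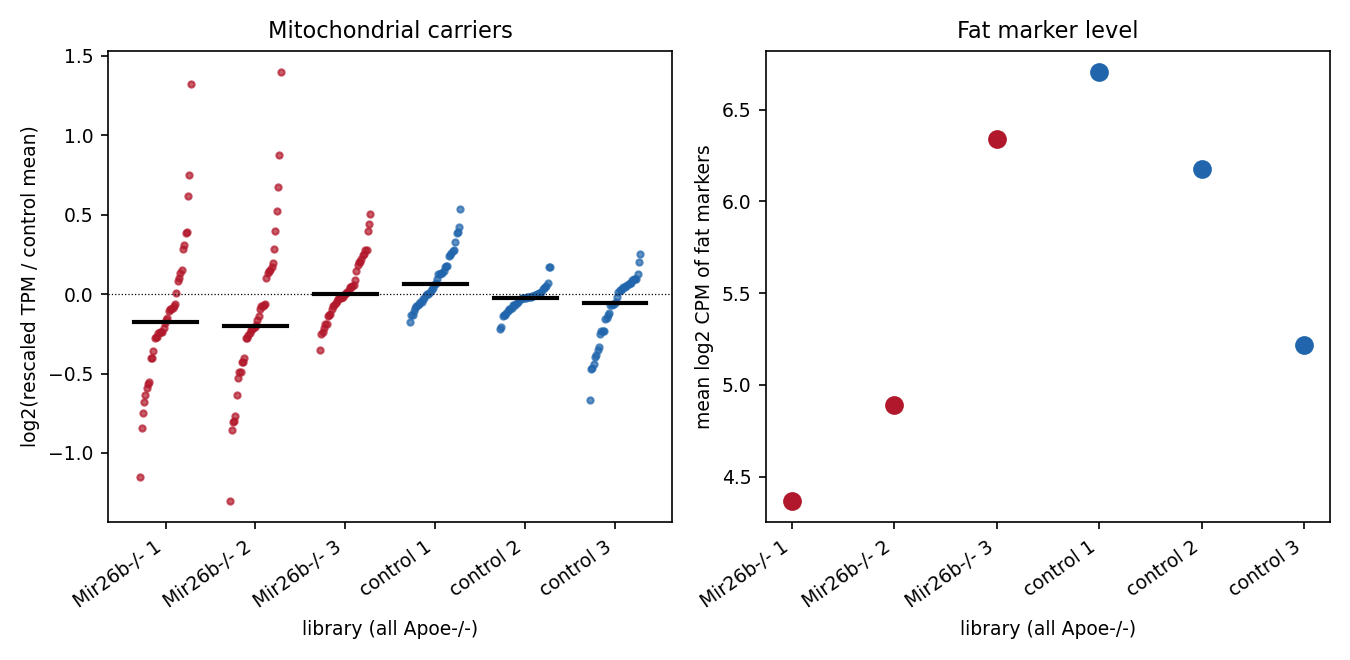
Left, log2 ratio to the control mean (y axis, rescaled TPM) of the 40 mitochondrial carrier rows, sorted within each library (x axis), with a bar at the median; right, the mean log2 CPM of fat markers per library. Knockouts 1 and 2 are low in both, at medians of -0.17 and -0.20 and fat levels of 4.37 and 4.89, and knockout 3 is at 0.00 and 6.34.

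The 3 increases ran against the class. Slc25a45, a carrier of less settled function, had 11.6, 12.2 and 6.29 rescaled TPM in knockouts and 5.13, 5.23 and 3.56 in controls, 2.17-fold higher (edgeR adjusted p 0.0465). Slc25a25, a calcium-regulated exchanger of ATP-magnesium for phosphate, had 9.004, 10.98 and 9.788 in knockouts and 7.52, 6.94 and 6.22 in controls, 1.33-fold higher (edgeR adjusted p 0.0355). Slc25a28 (mitoferrin 2), which brings iron into mitochondria, had 26.83, 28.98 and 25.02 in knockouts and 22.32, 22.71 and 20.97 in controls, 1.199-fold higher (edgeR adjusted p 0.0484). Its partner Slc25a37 (mitoferrin 1) had overlapping groups (log2 0.34, SE 0.13, edgeR adjusted p 0.129). The uncalled row with the lowest unadjusted p next to Slc25a4 was Slc25a43, with 6.9 to 8 in knockouts and 9.15 to 9.51 in controls (edgeR adjusted p 0.0786). In the same protein family under another symbol, Ucp2, an inner membrane carrier abundant in macrophages, was 2.97-fold higher, with 167.2, 197.0 and 87.0 in knockouts and 56.5, 65.1 and 33.6 in controls (edgeR adjusted p 0.0421). Ucp1, the uncoupler of brown fat, ran over 66.1, 97.3 and 471.0 in knockouts and 644.3, 287.4 and 143.8 in controls, not called (edgeR adjusted p 0.577).

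The ion carriers had 4 decreases (13.8%) and 2 increases (6.90%) among 29 rows, with a median log2 difference of -0.02. Slc8a2, a sodium-calcium exchanger, had 6.25, 5.53 and 6.93 rescaled TPM in knockouts and 8.47, 8.29 and 9.70 in controls, 1.44-fold lower (edgeR adjusted p 0.0322). Slc8a1, the main form in heart and artery, was more abundant and did not pass, at 17.9 to 21.2 in knockouts and 19.2 to 20.6 in controls (log2 0.03, SE 0.05). Slc24a3, a potassium-dependent sodium-calcium exchanger, had 25.9, 22.0 and 36.4 in knockouts and 44.5, 42.2 and 42.9 in controls and missed the threshold (log2 -0.69, SE 0.17, edgeR adjusted p 0.0530).

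Carriers of bicarbonate, chloride and protons followed. Slc4a3 (AE3), a chloride-bicarbonate exchanger of heart and other excitable tissue, had 34.4, 34.5 and 42.3 rescaled TPM in knockouts and 49.1, 54.1 and 54.2 in controls, 1.37-fold lower (edgeR adjusted p 0.0443). Slc4a7 (NBCn1), the sodium-bicarbonate importer that raises pH in arterial smooth muscle, had 9.03, 8.35 and 8.37 in knockouts and 10.5, 9.97 and 10.1 in controls, 1.22-fold lower (edgeR adjusted p 0.0310). Both groups were tight for Slc4a7, and a small step passed the test. Slc9a2, a sodium-proton exchanger, was scarce, at 1.30, 1.15 and 2.22 in knockouts and 3.26, 2.92 and 3.84 in controls (2.18-fold lower, edgeR adjusted p 0.0483), and it entered the set only through the controls. Slc12a4, a potassium-chloride cotransporter, was the most abundant ion carrier, with 82.9, 87.5 and 92.6 in knockouts and 100.3, 108.9 and 106.0 in controls, not called (edgeR adjusted p 0.0581). Slc4a2 and the phosphate importer Slc20a2 likewise did not overlap and were not called (edgeR adjusted p 0.0707 and 0.0644). Slc9a9, a sodium-proton exchanger of endosomes, had 6.81, 6.92 and 5.29 in knockouts and 4.18, 4.24 and 2.82 in controls (edgeR adjusted p 0.0549).

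The called increases were in the same cotransporter family as Slc12a4. Slc12a7 (KCC4) was 1.17-fold higher in the fit on counts (edgeR adjusted p 0.0381), and Slc12a9, a relative of less settled function, was 1.24-fold higher (edgeR adjusted p 0.0373). In rescaled TPM the groups overlapped for both: Slc12a7 had 40.8, 37.3 and 46.1 in knockouts and 35.8, 35.8 and 37.6 in controls. Slc12a9 had 11.8, 12.6 and 16.2 in knockouts and 10.5, 12.01 and 9.14 in controls. The table of counts and the table of levels thus differ in how well they separate the groups for these genes.

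Pumps and their subunits from the companion list had 3 lower and 1 higher of 11 tested. Atp2a2 (SERCA2), which refills the calcium store of the sarcoplasmic reticulum, had 204.3, 183.3 and 239.1 rescaled TPM in knockouts and 303.6, 281.0 and 335.1 in controls, 1.48-fold lower (edgeR adjusted p 0.0381). Atp2b4, a calcium pump of the plasma membrane, had 68.0, 58.6 and 63.7 in knockouts and 78.9, 76.5 and 86.4 in controls, 1.45-fold lower in the fit on counts (edgeR adjusted p 0.0277). Fxyd1 (phospholemman), a regulator of the sodium pump in muscle, was 1.21-fold lower (edgeR adjusted p 0.0313), while Fxyd5, another sodium pump subunit, was 2.09-fold higher (edgeR adjusted p 0.0499), with 341.5, 369.5 and 172.5 in knockouts and 134.8 to 136.6 in controls. The decreases stood beside smooth muscle marker medians of -0.55, -0.72 and -0.31 in knockouts 1, 2 and 3. The kinase Sgk1, which raises the surface level of several carriers, was 1.28-fold higher in the fit on counts (edgeR adjusted p 0.0327). Its rescaled TPM was 109.4 ± 2.38 in knockouts and 78.3 ± 5.28 in controls (SD, n = 3 each). Sgk1 was the 1 call among 6 tested genes of that role.

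**Figure D5:**
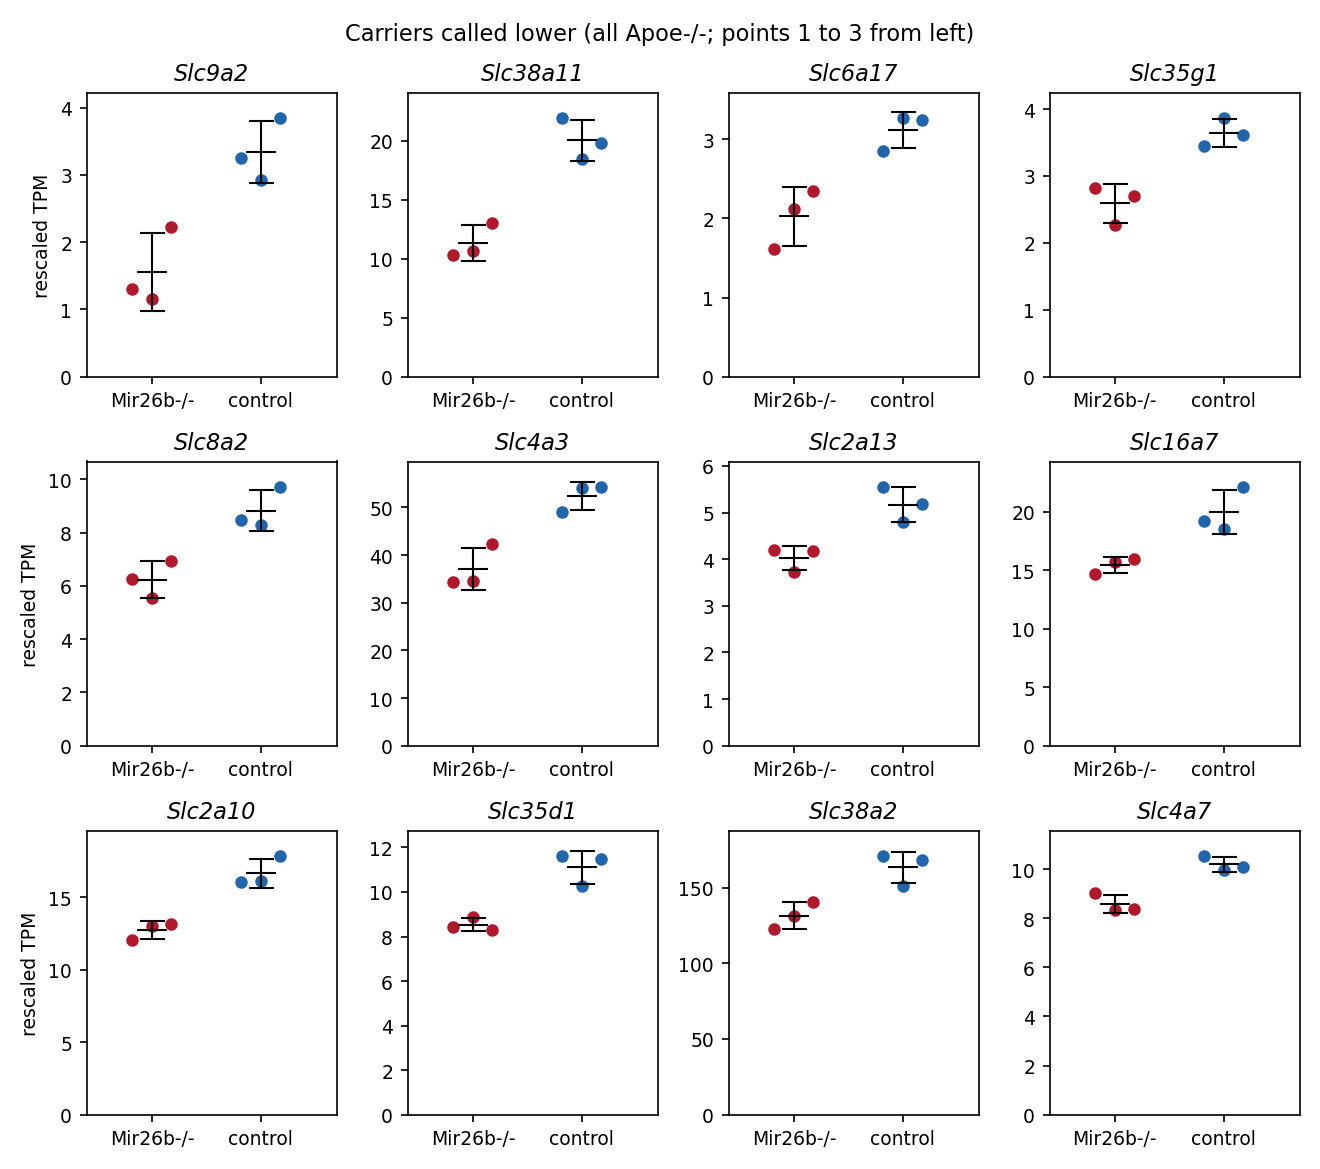
Rescaled TPM (y axis, from 0) in each library for the 12 carriers called lower, knockouts (red) left of controls (blue); bars show the mean and SD of 3 libraries. All knockout points lie below the controls, with steps between 1.22-fold for Slc4a7 and 2.18-fold for Slc9a2. Slc9a2 entered the set only through the controls.

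Nucleoside and nucleotide sugar carriers gave 2 increases (10.5%) and 1 decrease (5.26%) among 19 rows, with a median of 0.00. Slc29a3, the lysosomal nucleoside carrier whose loss in humans causes a histiocytosis, had 18.9, 18.6 and 12.9 rescaled TPM in knockouts and 10.3, 9.17 and 9.92 in controls, 1.75-fold higher (edgeR adjusted p 0.0396). Slc29a1, the plasma membrane form and the most abundant of the class, had overlapping groups, at 173.3 to 191.2 in knockouts and 180.2 to 205.4 in controls (log2 -0.07, SE 0.07). In the Golgi and endoplasmic reticulum, Slc35b3, which supplies the sulfate donor PAPS, had 23.1, 22.6 and 19.6 in knockouts and 17.7 to 18.6 in controls, 1.24-fold higher (edgeR adjusted p 0.0489). Slc35d1, which brings in UDP-sugars for chondroitin sulfate, had 8.42, 8.88 and 8.30 in knockouts and 11.6, 10.3 and 11.5 in controls, 1.28-fold lower (edgeR adjusted p 0.0328). Knockout 3 was the lowest library of all for Slc35d1. Slc43a3, a purine nucleobase carrier, and Slc35d2 had groups that did not overlap and were not called (edgeR adjusted p 0.0643 and 0.0704).

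Of 31 rows for monocarboxylates, organic ions and vitamins, 2 were higher (6.45%) and 1 lower (3.23%), with a median of 0.06. Slc46a3, a lysosomal carrier, had 8.48, 9.35 and 8.43 rescaled TPM in knockouts and 6.12, 6.18 and 5.85 in controls, 1.49-fold higher (edgeR adjusted p 0.0259), the lowest adjusted p among the increases, with all knockouts alike. Slc16a9 (MCT9) had 9.41, 8.57 and 7.54 in knockouts and 6.08, 5.60 and 6.68 in controls, 1.38-fold higher (edgeR adjusted p 0.0360). Slc16a7 (MCT2), a high-affinity importer of lactate and pyruvate, had 14.7, 15.7 and 15.9 in knockouts and 19.2, 18.6 and 22.1 in controls, 1.30-fold lower (edgeR adjusted p 0.0313). Of 4 tested companion genes that are chaperones or scaffolds of carriers, 1 was lower and 1 higher. Nptn, one of the chaperones of MCT2, was the lower one, at 386.9, 370.4 and 400.7 in knockouts and 507.8, 470.3 and 531.8 in controls (1.19-fold in the fit on counts, edgeR adjusted p 0.0496). Arrdc3 was 1.47-fold higher (edgeR adjusted p 0.0261). Emb (log2 -0.12, SE 0.06, edgeR adjusted p 0.201) and Bsg, the chaperone of other MCTs (log2 0.04, SE 0.06), were not called. The creatine carrier Slc6a8 and the folate carrier Slc19a1 had overlapping groups (edgeR adjusted p 0.221 and 0.499). Slc16a6 and Slc22a2 missed the threshold with adjusted p of 0.0528 and 0.0663. Organic anion carriers of the Slco family, kept under another symbol, included Slco2a1, the prostaglandin carrier, 1.86-fold higher (edgeR adjusted p 0.0477), and Slco2b1, 1.65-fold higher with 13.7, 15.1 and 13.6 in knockouts and 8.60, 8.53 and 7.76 in controls (edgeR adjusted p 0.0130). With Ucp2 these were the 3 calls, all higher, among 33 tested genes of that role.

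None of 7 fatty acid and choline carriers was called by edgeR, where 2 had an unadjusted p under 0.05, and DESeq2 called 1 higher. Slc44a2, a choline carrier, was the most abundant, at 121.7 to 135.8 rescaled TPM in knockouts and 127.8 to 152.5 in controls. The fatty acid importer Slc27a1 ran over 71.9, 73.9 and 106.8 in knockouts and 103.4, 89.3 and 65.7 in controls (edgeR adjusted p 0.506), and Slc27a4 had an adjusted p of 0.159. Slc44a1, another choline carrier, had 31.0, 31.5 and 26.5 in knockouts and 24.4, 24.9 and 21.4 in controls, without overlap (edgeR adjusted p 0.0664). Slc27a2, which imports and activates long-chain fatty acids, had the widest range within controls of all carriers, 4.51-fold, with 2.93, 3.80 and 13.2 in knockouts and 23.2, 11.8 and 5.13 in controls. Slc36a2, an amino acid carrier at the surface of brown fat cells, came next at 3.94-fold, with 11.5, 18.8 and 55.1 in knockouts and 71.7, 46.0 and 18.2 in controls. The median over all carriers was 1.15-fold within controls and 1.21-fold within knockouts. Of the 18 rows with no substrate assigned, Slc35g1 was 1.45-fold lower (2.82, 2.26 and 2.70 in knockouts, 3.45, 3.86 and 3.61 in controls, edgeR adjusted p 0.0381). Slc35f6 and Slc66a2 were the closest uncalled ones (edgeR adjusted p 0.0563 and 0.0676), and the most abundant, Slc49a4 and Slc35f5, had log2 differences of -0.14 (SE 0.05) and -0.06 (SE 0.06). Of the 5 rows whose names carry the Slc prefix but denote partners or neighbours of carriers, such as the scaffold genes Slc9a3r1 and Slc9a3r2, 0 were called by edgeR or DESeq2, with 1 at an unadjusted edgeR p under 0.05. Slc9a3r1 had 34.8, 31.3 and 21.9 in knockouts and 19.5, 23.7 and 21.4 in controls, with overlapping groups (edgeR adjusted p 0.158).

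At the threshold of the set, Slc18a2, Slc17a7 and Slc16a5 were just inside, with means of 2.02, 2.11 and 2.15 rescaled TPM, and Slc26a8, Slc12a5 and Slc2a9 were just outside at 1.84, 1.83 and 1.79. Within the set, 10 rows had a mean of at least 100, 120 lay between 10 and 100 and 90 were under 10. Slc18a2 passed only through the knockouts, and Slc9a2, Slc22a2 and Slc16a5 only through the controls. With a mean of at least 2 asked of each group, 216 rows remained, 17 called higher and 11 lower.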

How the data were processed

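The submitters' processing notes name kallisto 0.46.2, Trim Galore 0.6.5, FastQC 0.11.8 and the build GRCm38. The deposited estimated counts are not whole numbers, and in each library 1 read is worth a fixed amount, 0.90044 to 1.0685, by a scaling step that no label used here records. The deposited TPM values were rescaled by the authors and are treated as a signal; column sums were 955527 to 1034723. Counts were rounded, filtered with filterByExpr (minimum count 10), TMM-scaled and tested with edgeR 4.0.16 in R 4.3.3, on all genes. SE is the log2 difference divided by the root of F. Folds come from the fit on counts and need not equal the ratio of the rescaled TPM values printed beside them. DESeq2 1.42.0 and limma 3.58.1 were alternatives. Totals were 51634139 to 54817547 counts per library, which limits the precision of scarce carriers. The labels do not say whether replicate numbers pair the libraries, and the reported fit did not pair them. Carriers, substrate classes, companions and markers were chosen with earlier results of these data known, and Slc4a1ap was moved to the non-transporters after the rows were seen. Named carriers are all called ones, the 3 most abundant and the 2 uncalled ones of lowest p per class, those at the threshold or near Mir26b, and others said to be picked later; Slc7a5, Slc8a1 and Slc25a37 were added as relatives. A carrier that this rule names is not reported here. Positions and 3′ UTRs are from GENCODE M21.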

Additional observations from a re-analysis of the deposited data

How the results depend on the processing

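Against 17 higher and 12 lower carriers in the edgeR fit reported, DESeq2 called 32 and 24, limma-voom 6 and 10, limma on log2(TPM + 1) 3 and 2, limma on log2(TPM + 0.1) 7 and 3, and edgeR with the fat covariate 0 and 1. Counts over all genes moved too, from 1131 higher and 667 lower in the reported fit to 2086 and 1357 by DESeq2. They were 559 and 514 by limma-voom, 461 and 251 on log2(TPM + 1) and 641 and 301 on log2(TPM + 0.1). With the fat covariate they were 109 and 98. Leaving out 1 library gave 0 to 52 higher and 0 to 33 lower carriers; the lowest adjusted p was 0.0918, 0.0730 and 0.102 without control 1, 2 and 3, and 0.114 and 0.0931 without knockout 1 and 2. Other scalings, filters and thresholds on the mean (at least 1 or 5) gave 14 to 24 higher and 8 to 12 lower, within 1.5 times the reported counts. The 29 called carriers had 551 values under 19 alternatives, of which 303 stayed called, 248 (45.01%) lost the call and 0 changed sign; of 930 values of named uncalled carriers, 59 gained a call and 17 changed sign without one. Same-numbered libraries had correlations of -0.092, 0.234 and 0.0757, and a replicate block gave 15 higher and 11 lower carriers, 22 of them shared with the reported ones. The cause of these shifts was not tested.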

Other observations

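Among the 166 Slc rows with a mean under 2 rescaled TPM, 7 were called by edgeR, 6 higher and 1 lower. Many of the 166 did not pass the low-count filter and were not tested. Over all 17392 tested genes, 1131 were called higher and 667 lower. Of these, 952 and 640 were among the 13046 genes with a mean of at least 2. A share for tested Slc rows under 2 was not computed. Slc2a6 (GLUT6), a sugar carrier of lysosomes in inflamed macrophages, had 2.55, 2.99 and 1.503 rescaled TPM in knockouts and 0.744, 1.05 and 0.640 in controls, 2.92-fold higher (edgeR adjusted p 0.0313). Slc25a13 (citrin), which exchanges aspartate for glutamate in mitochondria, had 2.81, 3.30 and 1.34 in knockouts and 1.101, 1.06 and 0.737 in controls (2.62-fold higher, edgeR adjusted p 0.0421). Both had knockout 3 nearest to the controls.

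The noradrenaline carrier Slc6a2 showed another order, with knockout 3 the highest. The vesicular monoamine carrier Slc18a1 kept the order of Slc2a6 and Slc25a13, with knockout 3 the lowest knockout. Slc6a2 had 1.61, 1.51 and 1.77 rescaled TPM in knockouts and 1.11, 1.1 and 0.957 in controls (1.5-fold higher, edgeR adjusted p 0.0355). Slc18a1 had 0.648, 0.754 and 0.561 in knockouts and 0.182, 0.249 and 0.1104 in controls (3.33-fold higher, edgeR adjusted p 0.0483). Th and Dbh, which mark noradrenergic neurons, were at or under 0.335 in every library, too scarce to compare the groups. Th had 0.156, 0.122 and 0.335 in knockouts and 0.119, 0.034 and 0 in controls. Dbh had 0.012, 0 and 0.322 in knockouts and 0 in each control. Of the 8 tested nerve markers 1 was called, Tubb3, which was higher. Slc1a6 and Slc13a3 were also higher, at 0.944 or less in every library. The sodium-calcium exchanger Slc8a3 was lower in the fit on counts (1.90-fold, edgeR adjusted p 0.0269), with overlapping rescaled TPM of 0.587, 1.02 and 0.465 in knockouts and 1.09, 1.02 and 1.33 in controls.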
